A study of Mus musculus with 12 samples.

Results

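The response of Slc29a3-/- splenic dendritic cells (DCs) to bacteria was measured by comparing 3 RNA-seq libraries labelled KO splenic DCs treated with 3 libraries labelled KO splenic DCs control, 6 of the 12 libraries of the series. All genes of the deposited gene count table were used. The KO treated cells came from SLC29A3-/- C57BL6 mice and were given an attenuated Salmonella typhimurium strain (labelled STmDfla) at a multiplicity of infection of 10. The series design gives a pulse of 30 min, a wash and a chase of 3 h, whereas the treatment label gives 3 h with the bacteria. The KO control cells came from mice of the same genotype and were left untreated. WT treated and WT control libraries, 3 each from C57BL6 mice, were used for the shared estimate of spread and for the difference between the responses. Every group was made in one way: magnetic beads first took CD90.2+, CD45R+ and CD49b+ cells out of the spleen suspension, and CD11c+ cells were then selected. Whether the libraries of a group stand for separate animals is not in the labels, and the p-values reflect spread among these libraries only.

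Slc29a3 encodes ENT3, a nucleoside transporter of lysosomal membranes that exports nucleosides released when nucleic acids are degraded in the lysosome. Dendritic cells take up bacteria into phagosomes, where Toll-like receptors detect bacterial lipids, proteins and nucleic acids. The receptors signal through the adaptors MyD88 and TRIF to NF-kB, MAP kinases and interferon regulatory factors, and the cells then make cytokines and type I interferon, raise costimulatory molecules and leave for the T cell zone.

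The 6 KO libraries held 15814761 to 19087007 gene counts, and 14293 of 54532 genes passed the filter on low counts and were tested. Levels are given in CPM, gene counts divided by TMM-scaled library size, and are not corrected for gene length. The first principal component of the 6 libraries (52.2% of the variance) parted the treated libraries, with scores of 34.3 to 55.8, from the controls, with scores of -52.2 to -44.0. The second (25.1%) parted the libraries numbered 1 (52.5 treated, 40.0 control) from those numbered 2 and 3 (-32.4 to -12.8). Libraries numbered 1 also held 5897 and 4392 counts of 4 Y-linked genes in the treated and the control library, with 1 and 0 counts of Xist. KO libraries numbered 2 and 3 held 0 counts of those 4 genes and 10384 to 13208 of Xist. Number 1 therefore holds male RNA and numbers 2 and 3 female RNA, so that the spread within each group includes a difference between animals.

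The labelled cell types were present. Markers of cDC1, the cross-presenting conventional DCs, summed to 1933 to 2333 CPM in KO treated and 1364 to 2149 CPM in KO control libraries, and none of the 21 markers was at 0 in all 6 libraries. These sums include the interferon-induced Ifi205, at 328, 472 and 638 CPM in treated and 19.5, 17.8 and 11.4 CPM in control libraries. The median change of the 21 markers was -0.09 log2. Xcr1, the chemokine receptor of cDC1, was at 94.0, 69.1 and 85.4 CPM in KO treated libraries 1 to 3 and 67.4, 40.5 and 37.1 CPM in KO control libraries 1 to 3. Markers of cDC2, the CD4+ T cell priming conventional DCs, summed to 1753 to 1986 CPM in treated and 1631 to 2656 CPM in control libraries. Sirpa, the inhibitory receptor named in the labels, was at 291, 450.0 and 504 CPM in treated and 332, 627 and 797 CPM in control libraries. Markers of red pulp macrophages, which recycle iron from red cells, summed to 1151, 2306 and 3819 CPM in treated libraries 1, 2 and 3 and 1272, 2158 and 3761 CPM in the controls. They differed more between library numbers than between treatments, and only Clec4f of the 13 was at 0 throughout. Neutrophil markers summed to 344, 1456 and 189.7 CPM in treated and 236, 981 and 128 CPM in control libraries, highest in number 2 of both groups. Monocyte markers summed to 925, 955 and 896 CPM in treated and 602, 561 and 540.4 CPM in control libraries, and plasmacytoid DC markers to 393, 416 and 403 CPM and 301, 283 and 297 CPM, with no overlap in either list. Most single members did not pass: 2 of 12 tested monocyte markers rose and 1 fell (median 0.17 log2). Of 11 tested plasmacytoid DC markers 2 rose and 1 fell (median 0.09 log2). The part of single members that rose, such as Ms4a4c of the monocyte list, in these sums was not tested. Erythroid and platelet markers summed to 2118, 2804 and 5300 CPM in treated and 2095, 2380 and 4122 CPM in control libraries. T cell markers summed to 163, 107 and 79.5 CPM in treated and 191, 115 and 109.8 CPM in control libraries, and B cell and plasma cell markers to 688, 690.3 and 748 CPM and 613, 568 and 731 CPM. The defining T cell gene Cd3e was at 1.50, 0 and 0.350 CPM in treated and 1.73, 0.157 and 0.332 CPM in control libraries. In bulk RNA, fewer cells of a type and less RNA per cell cannot be told apart.

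**Figure D1:**
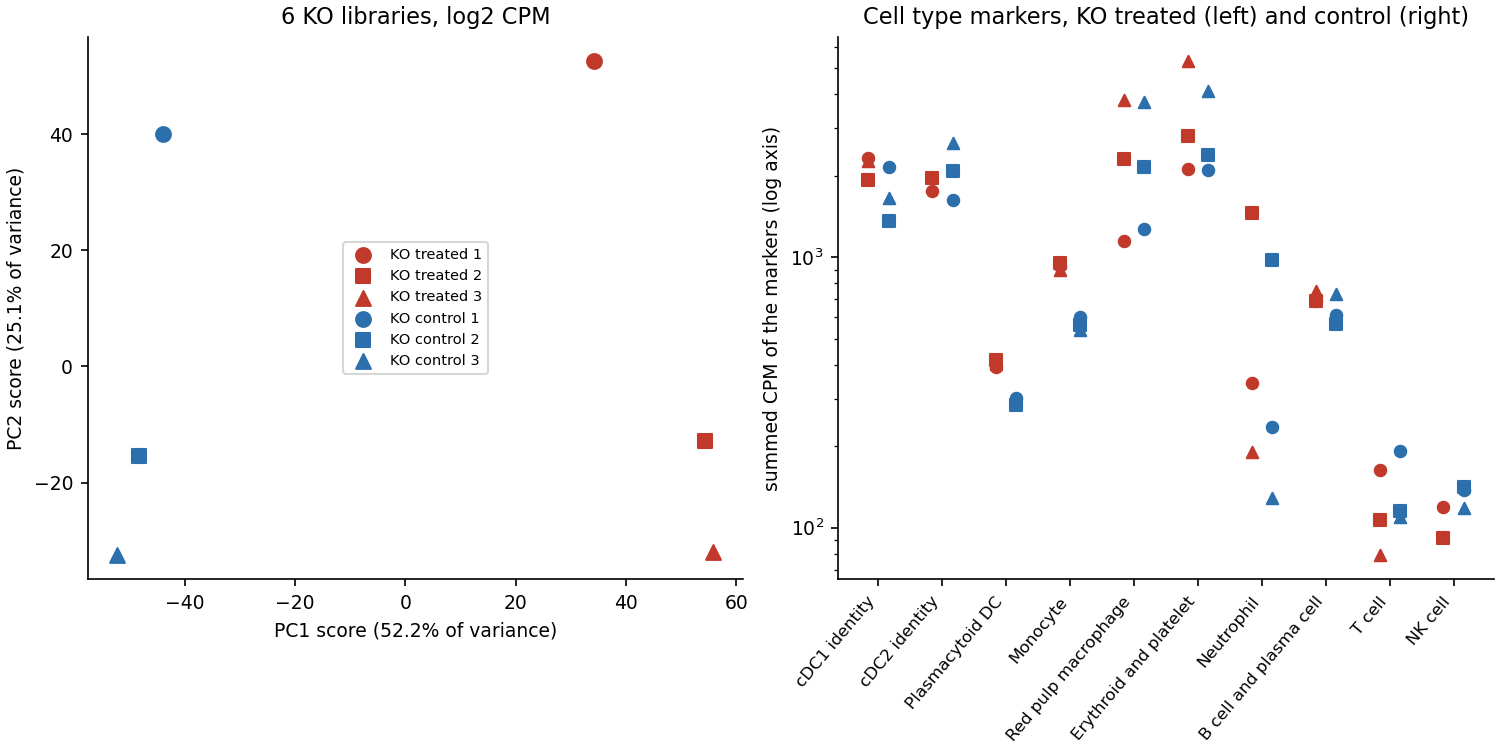
Left, scores of the 6 KO libraries on the first 2 principal components of log2 CPM (red, treated; blue, control; circle, square and triangle for libraries 1, 2 and 3). Right, summed CPM of each cell type's markers per library on a log axis, treated left of control; red pulp macrophage sums run from 1151 to 3819 CPM and follow the library number.

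Slc29a3 itself (ENSMUSG00000020100, mm10 chr10:60712072-60752794, minus strand) was counted in every KO library. It was at 147, 191 and 124 CPM in KO treated libraries 1 to 3 and 94.0, 74.0 and 63.5 CPM in KO control libraries 1 to 3. The treated libraries all lay above the controls, a difference of 1.00 log2 (SE 0.17, edgeR adjusted p = 0.00108). Treated libraries averaged 154 ± 34.3 CPM in KO and 213 ± 18.6 CPM in WT cells, and controls 77.1 ± 15.5 CPM in KO and 104 ± 5.50 CPM in WT cells (mean ± SD, n = 3 each). KO libraries lay below WT libraries in both states, but most of the WT level remained, and the change with bacteria in WT cells was 1.03 log2. Which exons the deletion removes is not given in the sources used here. These totals do not show loss of the gene, and reads from any remaining exons would enter them, so the libraries are called KO after their labels alone.

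Between KO cells given bacteria and KO control cells, 3292 of the 14293 tested genes differed at an edgeR adjusted p under 0.05, which is 23.0%. Of these 1654 rose (11.6%) and 1638 fell (11.5%). A change of at least 2-fold was reached by 821 genes that rose (5.74%) and 552 that fell (3.86%). The changes upward were wider: 361 genes rose and 73 fell at least 4-fold, and 77 rose and 2 fell at least 16-fold. The 1654 genes that rose gained 200753 CPM in sum, of which the 10 largest gains held 12.0% and the 100 largest 46.4%, and the 1638 that fell decreased by 26372.5 CPM in sum. At an unadjusted p under 0.05, 5104 genes (35.7%) differed. All 3 treated libraries lay above all 3 controls in 17.7% of tested genes and below them in 22.6%. With the library number as a block within genotype, 2369 genes rose (16.6%) and 2617 fell (18.3%), and 3267 of the 3292 calls were shared. The number that fell depended on single libraries: it was 963 without treated library 2, 903 without control library 2 and 882 without control library 3. Without control library 3, 343 genes fell at least 2-fold. The median of all tested genes was -0.07 log2 with TMM factors. With library totals as the only scaling it was -0.38 log2, and 1030 genes rose and 4691 fell.

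**Figure D2:**
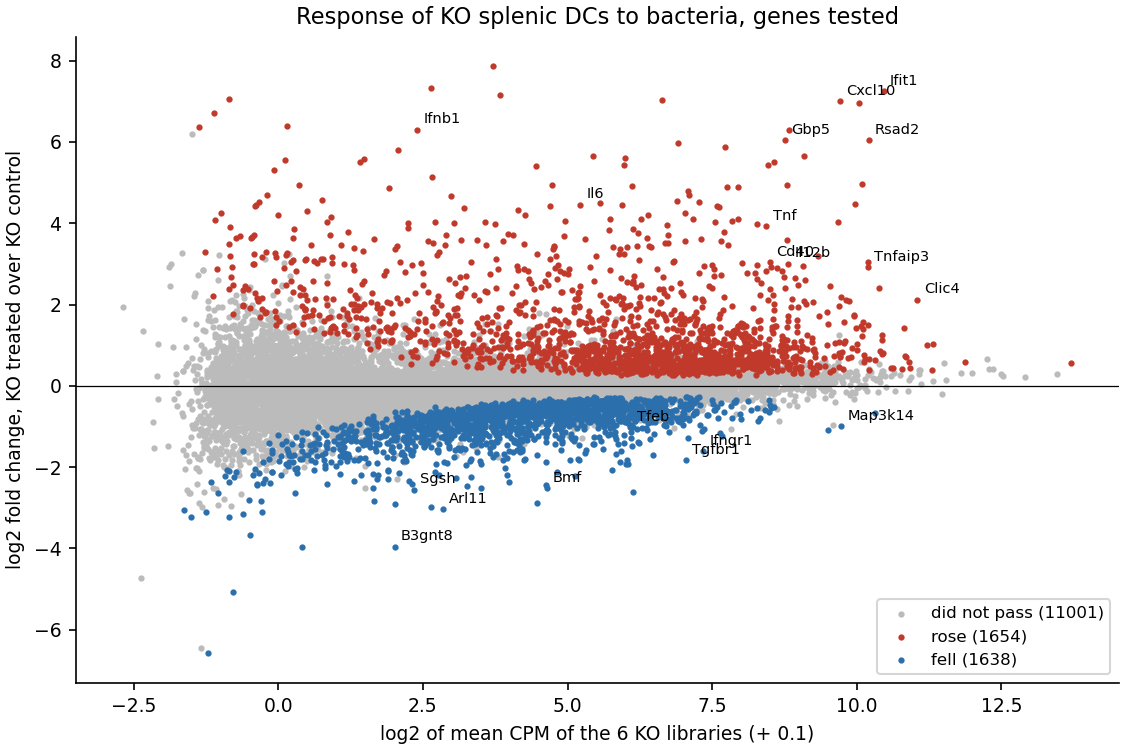
Each point is a tested gene, with the log2 of its mean CPM over the 6 KO libraries on the x axis and its fitted log2 fold change (KO treated over KO control) on the y axis. Genes that rose (1654, red) reach further from 0 than genes that fell (1638, blue).

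**Figure D3:**
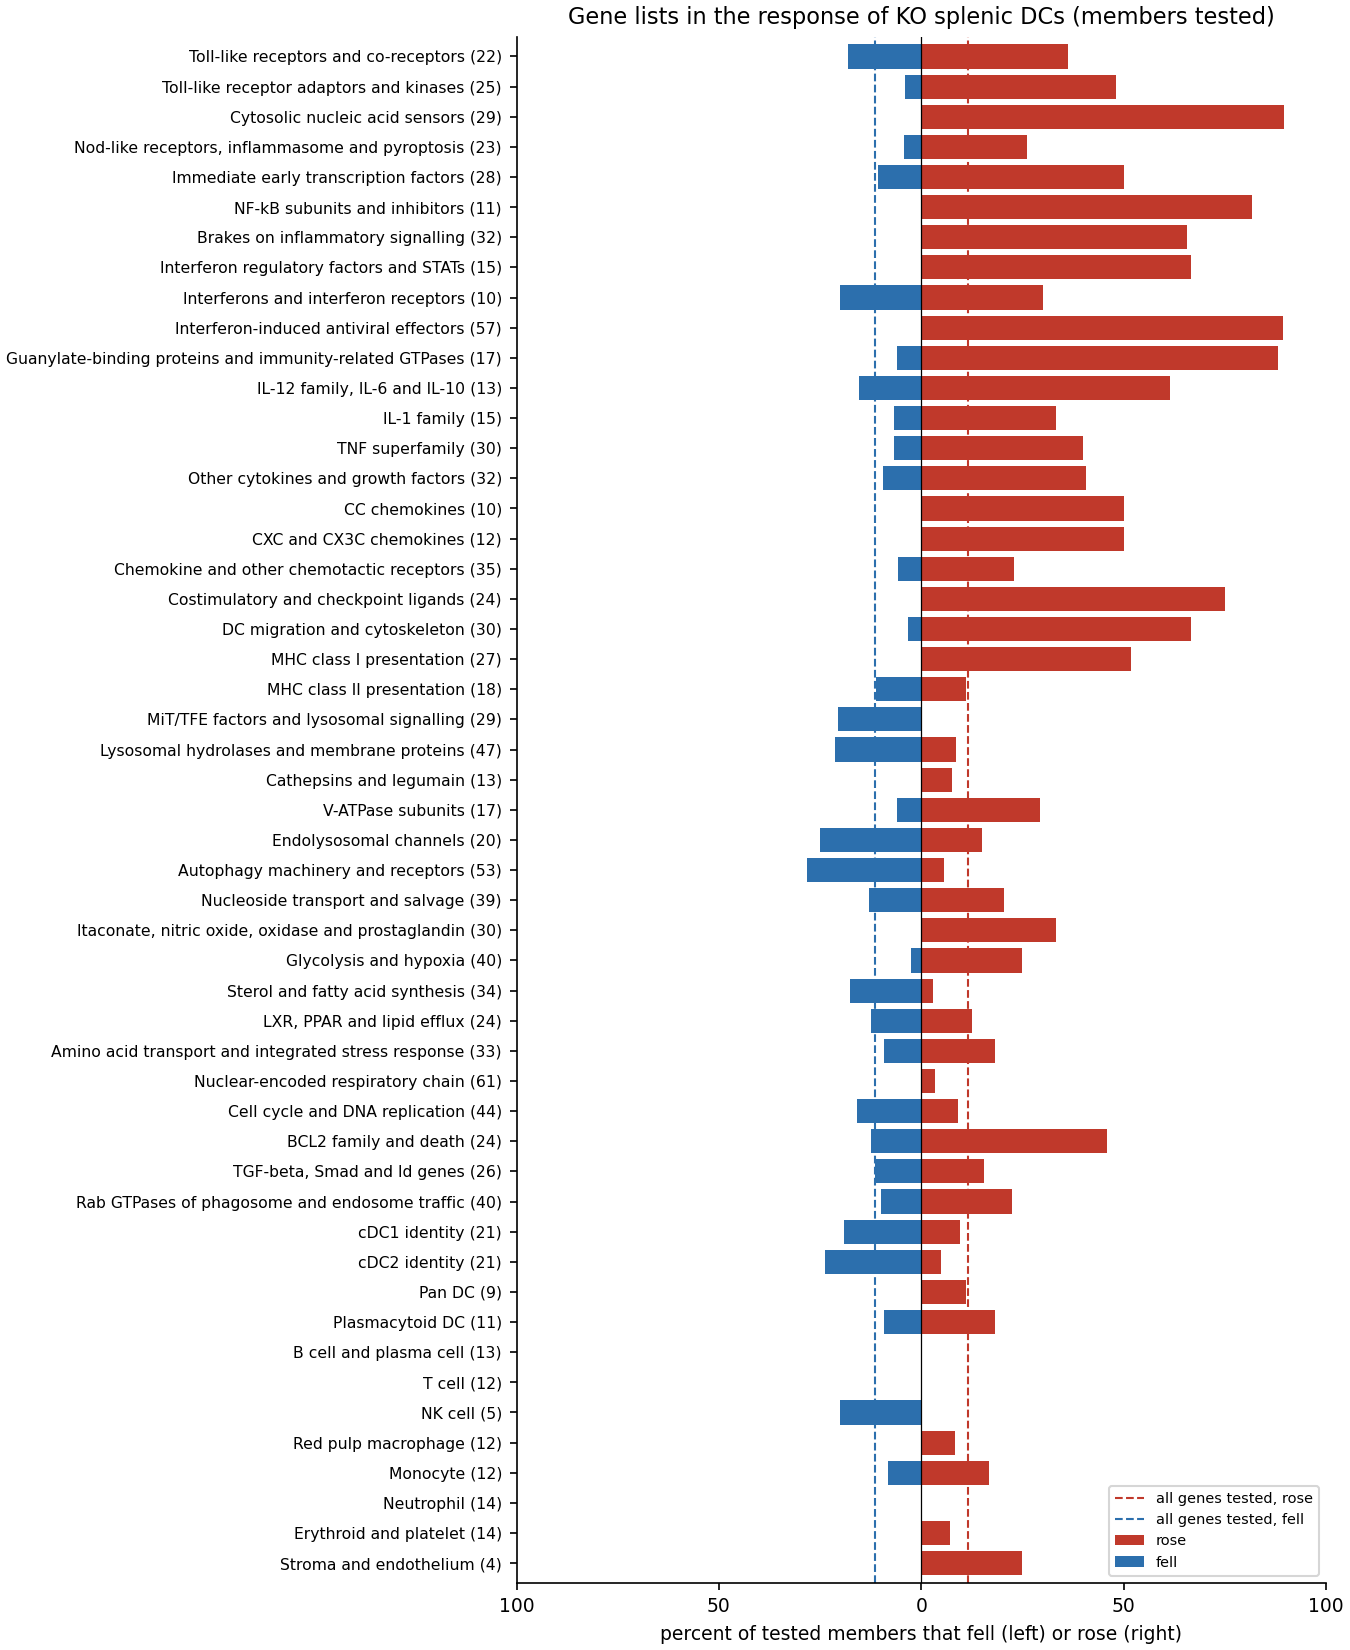
Percent of the tested members of each gene list that rose (red, right) or fell (blue, left) in KO cells, with dashed lines at the share of all tested genes (11.6% rose, 11.5% fell). The lists of nucleic acid sensors, antiviral effectors and guanylate-binding proteins reach furthest to the right.

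Receptors for bacterial products changed in both directions. Of 22 Toll-like receptors and co-receptors tested, 8 rose and 4 fell (10 and 7 with the replicate block; 3 and 7 by library totals; 4 to 5 and 1 to 3 without treated library 2 or 3 or control library 1 or 2), and the median change was 0.22 log2, or -0.10 when scaled by library totals alone. Where another scaling, or 1 library left out, moved a count by over 1.5 times and at least 2 genes, the pair of counts under it is given beside the main one, as it is where scaling moved the share of rises among the calls by over 10 percentage points. Of all tested genes 11.6% rose and 11.5% fell, the shares against which each list count stands. Tlr2, which detects bacterial lipoproteins, was at 101, 186 and 208 CPM in KO treated and 46.3, 68.9 and 69.8 CPM in KO control libraries 1 to 3. The treated libraries lay above the controls, a rise of 1.42 log2 (edgeR adjusted p = 0.000971). Cd14, the lipopolysaccharide co-receptor, rose by 1.61 log2 (163, 151 and 209.6 CPM treated, 73.3, 38.4 and 60.1 CPM control), and Tlr7, an endosomal receptor for single-stranded RNA, by 1.23 log2. Tlr11, a receptor for flagellin and profilin that marks cDC1, fell to 3.71, 2.90 and 2.59 CPM in treated libraries, against 17.2, 8.57 and 7.97 CPM in controls (-1.87 log2, edgeR adjusted p = 0.0016). Tlr4, the lipopolysaccharide receptor, was at 5.63, 8.18 and 17.1 CPM in treated and 12.5, 26.2 and 43.8 CPM in control libraries and did not pass (-1.42 log2, edgeR adjusted p = 0.0524), but passed with the library number as a block (edgeR adjusted p = 1.54e-05) or without treated library 3 or control library 1 (edgeR adjusted p = 0.0198 to 0.0231). Levels of Tlr4 rose with the library number as the macrophage sums did, and the part of macrophages in its change was not tested.

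Downstream adaptors and kinases rose more often than they fell. Of 25 tested, 12 rose and 1 fell (6 and 5 by library totals), with a median of 0.51 log2 against -0.07 for all tested genes. Myd88, the adaptor of most Toll-like receptors, was at 171, 221 and 292 CPM in treated and 73.1, 68.4 and 76.5 CPM in control libraries, with no overlap (1.65 log2, SE 0.16, edgeR adjusted p = 2.15e-05). Peli1, a ubiquitin ligase of the pathway, rose by 2.39 log2, and Map3k8, the kinase that links NF-kB1 to ERK, by 1.59 log2. Tab1, a partner of the kinase TAK1, fell by 1.58 on the log2 scale, to 5.45, 4.87 and 2.80 CPM in treated libraries, against 12.7, 17.0 and 9.86 CPM in controls. Among 23 Nod-like receptors and inflammasome genes, 6 rose and 1 fell (8 and 5 with the replicate block; median 0.09 log2, and -0.23 scaled by library totals; 6 and 6 by library totals). Nlrp3, the sensor of the NLRP3 inflammasome, rose by 2.58 log2 and Casp4, which encodes the lipopolysaccharide-binding caspase known as caspase-11 in mice, by 2.56 log2. Casp4 was at 90.5, 111 and 134 CPM in treated and 18.9, 21.3 and 16.8 CPM in control libraries, and the groups did not overlap. Gsdmd, the pore-forming protein cut by these caspases, rose by 0.81 log2.

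Cytosolic sensors of RNA and DNA rose almost as a whole. Of 29 tested, 26 rose and none fell (27 rose and 1 fell with the replicate block; 26 and 2 by library totals), and the median was 3.51 log2. Ifih1, which encodes the double-stranded RNA sensor MDA5, was at 1080, 2312 and 2945 CPM in KO treated libraries 1 to 3 and 58.4, 73.2 and 72.5 CPM in KO control libraries 1 to 3. Every treated library lay above every control, and the rise was 4.96 log2 (SE 0.33, edgeR adjusted p = 1.71e-06). Oasl1, an oligoadenylate synthetase-like inhibitor of Irf7 translation, rose by 4.48 log2 (1172, 2150 and 2409 CPM treated, 104, 84.9 and 68.5 CPM control). Members of the Ifi200 group of DNA-binding proteins also rose, Ifi213 by 5.65 and Ifi205 by 4.89 log2. Reads of this group, and of the Trim30 and Ifit families named below, can be shared between near-identical copies. Ifi208 rose by 5.57 log2 (edgeR adjusted p = 0.0259) and was at 0.359, 14.9 and 0.561 CPM in treated and 0.223, 0.104 and 0 CPM in control libraries. Its call was lost without treated library 2 or any 1 control library (edgeR adjusted p = 0.055 to 0.307).

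More transcription factors of the early response rose than fell. Of 28 immediate early factors tested, 14 rose and 3 fell (median 0.65 log2; 9 and 5 by library totals; 8 to 12 and 1 to 2 without treated library 2 or 3 or control library 1, 2 or 3). Egr1, a zinc finger factor induced by ERK, was at 66.4, 75.4 and 153 CPM in treated and 17.3, 23.0 and 31.4 CPM in control libraries, with no overlap (2.04 log2, SE 0.33, edgeR adjusted p = 0.00103). Atf3, a repressor of inflammatory genes, rose by 2.08 log2 and Mafk by 1.77 log2. Klf2 and Klf4, factors of quiescence and monocyte differentiation, were at 51.1, 44.4 and 55.4 and 45.0, 40.8 and 32.7 CPM in treated libraries, against 87.5, 68.6 and 93.6 and 82.7, 50.8 and 60.0 CPM in controls, and fell by 0.73 and 0.71 on the log2 scale. The call of Klf4 was lost without treated library 3 or control library 1 (edgeR adjusted p = 0.0583 to 0.0669), and that of Klf2 without treated library 2 or control library 1 or 3 (edgeR adjusted p = 0.052 to 0.076).

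Of 11 NF-kB subunits and inhibitors, 9 rose and none fell (median 0.89 log2). Nfkbiz, an inducible nuclear IkB protein needed for part of the Toll-like receptor programme, was at 876, 971 and 1009 CPM in treated and 108, 106 and 156 CPM in control libraries (2.95 log2, SE 0.16, edgeR adjusted p = 5.78e-07). Nfkbia, the IkB alpha gene that NF-kB itself induces, was at 1411, 1609 and 1549 CPM in treated and 478, 414 and 463 CPM in control libraries (1.75 log2). In both genes every treated library lay above every control. Nfkb1 rose by 1.22 log2.

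Of brakes on signalling, more rose than fell. Of 32 tested, 21 rose and none fell (25 rose and 3 fell with the replicate block; 19 and 4 by library totals; 22 and 3 without treated library 1), with a median of 1.14 log2. Tnfaip3, the ubiquitin-editing enzyme A20, was at 1844, 2339 and 2031 CPM in treated and 299, 267 and 258 CPM in control libraries (2.91 log2, SE 0.13, edgeR adjusted p = 2.04e-07). Socs3 and Socs1, inhibitors of cytokine receptor signalling, rose by 2.83 and 2.53 log2. Usp18, which removes ISG15 and dampens the interferon receptor, rose by 4.89 log2 (248, 438 and 562 CPM treated, 12.3, 16.7 and 13.2 CPM control). Il1rn, the antagonist of interleukin 1, rose by 2.52 log2 and Dusp14, a MAP kinase phosphatase, by 3.58 log2.

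Interferon genes themselves had few counts. Ifnb1, the interferon beta gene, was at 8.75, 9.05 and 12.8 CPM in KO treated libraries 1 to 3 and 0.390, 0 and 0 CPM in KO control libraries 1 to 3. It had 485 counts over the treated libraries and 7 over the controls, all in control library 1, a ratio of 83.7 (95% counting interval 40.3 to 209), and its edgeR adjusted p was 0.0005. Of the 20 interferon genes below the filter, 8 had no count in any KO library. Ifna1 and Ifna4, interferon alpha genes, had 20 and 18 counts over the treated libraries and 0 over the controls, at least 8.05-fold and 7.24-fold higher when the control group is set at a floor of 3 counts. That floor covers the control counts alone, and the lower 95% counting limits of the ratios, with both groups' counting error, were 5.96 and 5.31. The interferon lambda gene Ifnl2 had 27 counts in treated libraries and 0 in controls, at least 10.9-fold higher on the same floor, with a lower counting limit of 8.25. Ifng, the interferon gamma gene, had 0 counts in treated and 2 in control libraries. These intervals and floors cover counting error only.

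Among the receptor chains, Ifngr1 and Ifnlr1 fell. Ifngr1, the ligand-binding chain of the interferon gamma receptor, fell to 105, 67.6 and 67.8 CPM in treated libraries, against 287, 216 and 229.7 CPM in controls (-1.61 log2, SE 0.18, edgeR adjusted p = 6.04e-05). Ifnlr1, the interferon lambda receptor chain, fell by 1.93 on the log2 scale (3.53, 3.07 and 1.47 CPM treated, 9.42, 10.9 and 10.7 CPM control). Ifnar1, the type I receptor chain, was at 206, 147 and 128 CPM in treated and 253, 195 and 207 CPM in control libraries and did not pass (edgeR adjusted p = 0.0636), but passed with the replicate block (-0.46 log2, edgeR adjusted p = 0.00172) or without treated library 1 (edgeR adjusted p = 0.0044). Of 15 interferon regulatory factors and STATs, 10 rose and none fell (13 rose and 1 fell with the replicate block; median 0.77 log2; 8 and 1 by library totals). Irf7, the factor that amplifies interferon production, was at 217, 417 and 563 CPM in treated and 31.4, 41.1 and 36.2 CPM in control libraries (3.46 log2, edgeR adjusted p = 8.62e-05), lowest among the treated in library 1. Stat2, a subunit of the interferon-induced complex ISGF3, rose by 2.78 log2, and Irf9, another subunit, by 1.61 log2.

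Wide rises were found in genes that interferon induces. Of 57 antiviral effectors tested, 51 rose and none fell, with a median of 3.04 log2, and of 17 guanylate-binding proteins and immunity-related GTPases 15 rose and 1 fell, with a median of 3.62 log2. Ifit1 (ENSMUSG00000034459, mm10 chr19:34640871-34650009, plus strand), which binds foreign RNA caps, was at 1493, 2938 and 3988 CPM in treated and 16.7, 21.9 and 16.8 CPM in control libraries. The groups did not overlap, and treated library 1 was the lowest of the treated (152-fold, 7.25 log2, SE 0.53, edgeR adjusted p = 3.22e-06). Rsad2, the antiviral enzyme viperin, was at 1135, 2683 and 3173 CPM in treated and 30.5, 35.6 and 39.7 CPM in control libraries (66.0-fold). Mx2, of the family of dynamin-like antiviral GTPases, was at 122, 205 and 261 CPM in treated and 1.17, 1.98 and 1.28 CPM in control libraries (132-fold, edgeR adjusted p = 9.44e-07). The deposited gene annotation classes Mx2 as a polymorphic pseudogene, so its RNA does not show that a working protein is made. Helz2, a helicase coactivator, gained 1838 CPM on average, with 1705, 2107 and 2460 CPM in treated and 268, 260.0 and 231 CPM in control libraries. Gbp5, a guanylate-binding protein that attacks bacterial vacuoles, was at 426, 948 and 1193 CPM in treated libraries and 12.9 ± 0.826 CPM (mean ± SD, n = 3) in control libraries (66.4-fold, SE 0.36 on the log2 scale). Irgm1, an immunity-related GTPase of the same defence, rose by 4.06 log2. Trim30c had 1216 counts over the treated and 6 over the control libraries, a ratio of 245 (95% counting interval 112 to 668). Irgq, the member that fell, was at 16.4, 13.9 and 14.6 CPM in treated libraries and 22.4 ± 1.19 CPM (mean ± SD, n = 3) in control libraries (-0.58 log2, edgeR adjusted p = 0.0433), and lost its call without any 1 of the 6 KO libraries (edgeR adjusted p = 0.0512 to 0.14).

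Promoter windows of the genes that rose carried the interferon element more often than those of all tested genes. RefSeq windows of 250 bases before to 50 after the start (build GRCm38.p6) were matched by symbol for 10002 of 14277 tested genes. The core of the interferon-stimulated response element (GAAA, any 2 bases, GAAA), on either strand, was in 406 of the 10002 (4.06%), in 92 of 551 genes that rose at least 2-fold (16.7%) and in 25 of 61 that rose at least 16-fold (41.0%). It was in 14 of 424 genes that fell at least 2-fold (3.3%), in 21 of 48 antiviral effectors (43.8%) and in 9 of 10 guanylate-binding proteins and immunity-related GTPases with a window. The AP-1 site TGANTCA was in 6.24% of all windows and in 14 of the 61 of genes that rose at least 16-fold (23.0%). The NF-kB site (GGGA, any base, TTTCC) was in 0.55% of all windows and in 3 of those 61 (4.92%). These are matches of letters, described without a test, and the sets were chosen by the measured change. Windows of 4 genes with wide rises that hold the interferon core are shown, 5′ to 3′ on the strand of the gene, with the core in capitals (in reverse complement for Ifit1, Rsad2 and Gbp5). The window of Ifit1 (chr19:34640639-34640938, plus strand) holds the core at -104 and -85 from the start, that of Rsad2 (chr12:26456403-26456702, minus strand) at -120, that of Cxcl10 (chr5:92348840-92349139, minus strand) at -213 and that of Gbp5 (chr3:142496684-142496983, plus strand) at -165.
Ifit1: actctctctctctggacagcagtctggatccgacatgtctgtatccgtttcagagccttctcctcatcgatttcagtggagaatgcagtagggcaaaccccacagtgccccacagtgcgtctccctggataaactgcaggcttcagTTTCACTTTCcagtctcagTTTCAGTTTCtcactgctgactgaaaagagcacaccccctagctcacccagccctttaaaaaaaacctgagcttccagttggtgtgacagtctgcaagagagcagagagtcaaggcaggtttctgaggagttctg
Rsad2: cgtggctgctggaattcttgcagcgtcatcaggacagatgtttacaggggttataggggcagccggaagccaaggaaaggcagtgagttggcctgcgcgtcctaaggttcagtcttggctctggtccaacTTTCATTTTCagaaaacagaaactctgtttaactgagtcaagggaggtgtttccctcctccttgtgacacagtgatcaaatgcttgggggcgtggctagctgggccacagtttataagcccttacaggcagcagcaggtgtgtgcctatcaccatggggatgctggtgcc
Cxcl10: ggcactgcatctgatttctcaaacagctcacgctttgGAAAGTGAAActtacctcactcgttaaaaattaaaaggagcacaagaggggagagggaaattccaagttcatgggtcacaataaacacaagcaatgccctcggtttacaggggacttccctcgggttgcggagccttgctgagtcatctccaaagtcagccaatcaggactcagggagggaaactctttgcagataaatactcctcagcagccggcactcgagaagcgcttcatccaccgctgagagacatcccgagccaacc
Gbp5: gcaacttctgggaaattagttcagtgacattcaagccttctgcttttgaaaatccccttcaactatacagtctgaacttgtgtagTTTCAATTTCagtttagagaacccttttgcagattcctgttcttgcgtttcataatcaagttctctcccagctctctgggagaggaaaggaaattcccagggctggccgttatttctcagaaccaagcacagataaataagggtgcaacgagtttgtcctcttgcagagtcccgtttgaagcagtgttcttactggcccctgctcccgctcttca
The window of Nfkbia (chr12:55492598-55492897, minus strand), a gene that NF-kB controls, is shown with the NF-kB letters in capitals (reverse complement) at -29, and holds no interferon core. The Gbp5 window holds the NF-kB letters too, in reverse complement at -77, left in lower case, as are the AP-1 letters of Rsad2 at -87 and of Cxcl10 at -74.
Nfkbia: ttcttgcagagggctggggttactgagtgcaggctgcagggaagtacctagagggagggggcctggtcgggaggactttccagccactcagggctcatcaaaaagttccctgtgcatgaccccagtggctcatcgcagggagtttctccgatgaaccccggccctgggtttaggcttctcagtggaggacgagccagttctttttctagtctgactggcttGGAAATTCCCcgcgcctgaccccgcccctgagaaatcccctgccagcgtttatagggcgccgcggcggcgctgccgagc

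**Figure D4:**
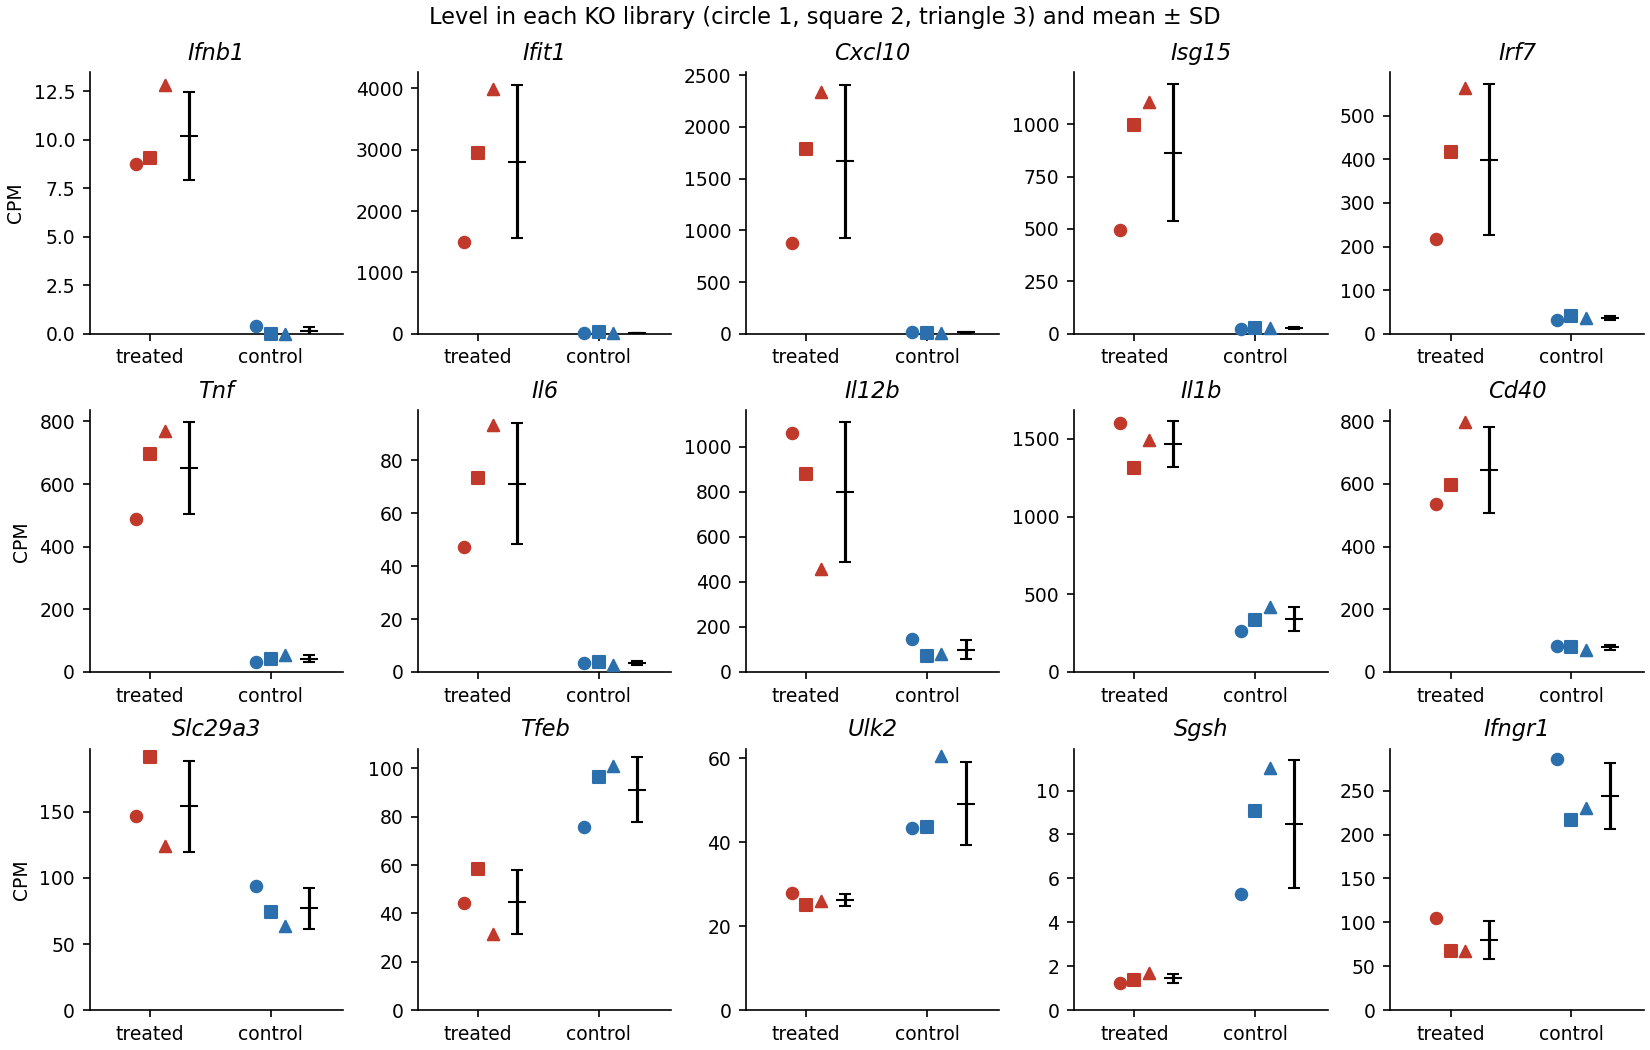
CPM of 15 genes in each KO library (circle, square and triangle for libraries 1, 2 and 3), treated left of control, with the mean and SD beside each group (n = 3). The treated libraries of the first 11 genes lie above the controls, and those of Tfeb, Ulk2, Sgsh and Ifngr1 lie below them.

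More genes of the IL-12 family, IL-6 and IL-10 rose than fell, and the receptor chains for IL-6 fell. Of 13 tested in that list, 8 rose and 2 fell (median 2.15 log2). Il12b, the p40 subunit shared by interleukins 12 and 23, was at 1061, 876 and 457 CPM in KO treated libraries 1 to 3 and 146, 71.1 and 80.8 CPM in KO control libraries 1 to 3. The groups did not overlap, with number 1 highest in both (3.01 log2, SE 0.47, edgeR adjusted p = 0.000762). Il12a and Il23a, the partner subunits of p40, were close to the limit of detection: Il12a had 62 counts in treated and 3 in control libraries, a ratio of 25.0 (95% counting interval 8.15 to 124), and Il23a 67 and 3 counts, a ratio of 27.0 (8.84 to 134). Il6, a cytokine of the acute phase response, was at 47.3, 73.2 and 93.2 CPM in treated and 3.34, 3.92 and 2.47 CPM in control libraries (4.46 log2, edgeR adjusted p = 2.03e-06). Il10, the anti-inflammatory cytokine, rose by 2.15 log2 and Il27 by 3.59 log2, to 14.1, 14.8 and 20.2 CPM in treated libraries, against 1.95, 1.10 and 1.04 CPM in controls. Il6ra and Il6st, the receptor chains for IL-6, fell by 1.44 and 1.12 on the log2 scale.

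Of 15 IL-1 family genes, 5 rose and 1 fell (median 0.72 log2), and of 30 TNF superfamily genes 12 rose and 2 fell (median 0.61 log2). Il1b, the fever cytokine activated by caspase-1, was at 1602, 1311 and 1493 CPM in treated and 266, 337 and 420.0 CPM in control libraries (2.11 log2, edgeR adjusted p = 1.18e-05). Il1a rose by 4.06 log2. Il33, an alarmin, had 561 counts in treated and 4 in control libraries, a ratio of 169 (95% counting interval 65.8 to 624), at 4.01, 9.34 and 23.3 CPM in treated libraries 1 to 3. WT treated libraries 1 to 3 held 0.141, 0.291 and 0.474 CPM of Il33. Its levels in KO treated libraries rose with the library number as the red pulp macrophage sums did, and the part of macrophages in its rise was not tested. Sigirr, an inhibitory receptor of the family, fell by 1.36 on the log2 scale. Tnf was at 489, 697 and 769 CPM in treated and 33.0, 40.7 and 54.0 CPM in control libraries (3.93 log2, SE 0.26, edgeR adjusted p = 1.47e-06), and Tnfsf15, a costimulator of T cells, rose by 5.42 log2. Of 32 other cytokines, growth factors and receptors 13 rose and 3 fell (15 and 6 with the replicate block; median 0.32 log2, and -0.02 scaled by library totals; 12 and 5 by library totals; 11 to 13 and 1 without treated library 3 or control library 3). Il15 and Il15ra, which together are presented to NK and CD8+ T cells, rose by 3.48 and 2.74 log2. Il2ra, the CD25 chain that marks mature DCs, was at 164, 425 and 387 CPM in treated and 35.1, 55.5 and 42.2 CPM in control libraries (2.88 log2, edgeR adjusted p = 9.96e-05). Tgfbr1, the signalling receptor for TGF-beta, fell to 56.1, 55.1 and 62.2 CPM in treated libraries, against 105, 206 and 305 CPM in controls (-1.83 log2, edgeR adjusted p = 0.00141). Its control levels differed by library number as the macrophage markers did, and the part of macrophages in this fall was not tested.

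Among chemokine genes, 5 of 10 CC and 6 of 12 CXC or CX3C chemokines rose and none fell (medians 1.55 and 1.45 log2). Ccl4, which attracts T and NK cells, was at 636, 1175 and 1377 CPM in treated and 30.3, 15.8 and 17.7 CPM in control libraries (5.64 log2, SE 0.46, edgeR adjusted p = 7.53e-06). Cxcl10, the ligand of CXCR3 on activated T cells, was at 875, 1789 and 2340 CPM in treated and 15.5, 11.8 and 11.8 CPM in control libraries (128-fold, edgeR adjusted p = 2.2e-06). Ccl5, Ccl3 and Cxcl2 rose by 3.59, 4.40 and 4.94 log2, and Ccl22, a chemokine of mature DCs, by 2.14 log2. Of 35 chemotactic receptors 8 rose and 2 fell (14 and 5 with the replicate block; median 0.27 log2, and -0.07 scaled by library totals; 8 and 4 by library totals; 8 and 4 without treated library 1). Ccr7, which guides DCs to the T cell zone, was at 3450, 3198 and 2862 CPM in treated and 2079, 1313 and 1337 CPM in control libraries (1.01 log2, edgeR adjusted p = 0.00138). Ccrl2, a non-signalling chemerin receptor, rose by 4.54 log2 and Cxcr5 by 2.45 log2. Cx3cr1, the fractalkine receptor, fell to 15.1, 36.5 and 29.2 CPM in treated libraries, against 51.1, 123 and 131 CPM in controls (-1.92 log2). Its level was lowest in library 1 of both groups, as the macrophage sums were, and the part of macrophages in this fall was not tested.

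Most of the maturation genes rose. Of 24 costimulatory and checkpoint ligands 18 rose and none fell (median 1.64 log2), and of 30 genes of migration and cytoskeleton 20 rose and 1 fell (median 0.66 log2). Cd40, which receives help from T cells, was at 537, 595 and 797 CPM in KO treated libraries 1 to 3 and 84.4, 79.9 and 70.3 CPM in KO control libraries 1 to 3 (3.04 log2, SE 0.16, edgeR adjusted p = 5.62e-07). Every treated library lay above every control. Tnfsf9 and Cd70, ligands that costimulate T cells, rose by 3.96 and 3.05 log2. Cd86 was at 1105, 1118 and 1136 CPM in treated and 407, 264 and 279 CPM in control libraries (1.82 log2, edgeR adjusted p = 2.41e-05), and Cd274, which encodes the inhibitory ligand PD-L1, rose by 1.98 log2. Marcksl1, an actin-binding protein, was at 1692, 2542 and 2490 CPM in treated and 478, 424 and 369 CPM in control libraries (2.40 log2), and Fscn1, the bundling protein of dendrites, rose by 1.49 log2. Clic4, an intracellular chloride channel protein, and Actb, cytoplasmic actin, also gained: Clic4 gained 2651 CPM (2719, 3931 and 3679 CPM treated, 869, 748 and 757 CPM control) and Actb 5052 CPM. The call of Actb (0.55 log2) was lost when scaled by library totals alone (edgeR adjusted p = 0.0917).

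Of 27 MHC class I genes 14 rose and none fell (median 0.45 log2; 9 and 0 by library totals). Tapbp, the tapasin gene of the peptide-loading complex, was at 509.6, 835 and 859 CPM in treated and 280.1, 251 and 260.4 CPM in control libraries (1.48 log2, edgeR adjusted p = 0.000112). The nonclassical genes H2-T24 and H2-T22 rose by 1.98 and 1.78 log2 and the transporter gene Tap1 by 0.95 log2. Of 18 MHC class II genes 2 rose and 2 fell (1 and 3 by library totals; 9 and 1 without control library 1), a share near the background, but 13 rose and 2 fell with the replicate block. Ciita, the class II transactivator, was at 589, 473 and 313 CPM in treated and 303, 203 and 167 CPM in control libraries (1.03 log2, edgeR adjusted p = 0.00801). H2-Aa, a class II alpha chain, was at 6750, 6022 and 5150 CPM in treated and 5601, 3950 and 3938 CPM in control libraries and did not pass (0.41 log2, edgeR adjusted p = 0.0729), but passed with the block (0.42 log2, edgeR adjusted p = 0.00386) or without control library 1 (edgeR adjusted p = 0.00915). Rfxank, a subunit of the class II promoter complex, fell by 1.07 on the log2 scale.

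In the main fit, regulators and hydrolases of the lysosome, the compartment in which ENT3 works, fell more often than they rose. Of 29 genes for MiT/TFE factors and lysosomal mTORC1 signalling none rose and 6 fell (2 and 7 with the replicate block; median -0.11 log2; 0 and 12 by library totals). Tfeb (ENSMUSG00000023990, mm10 chr17:47737030-47792419, plus strand), the transcription factor that raises lysosomal and autophagy genes, fell to 44.2, 58.4 and 31.6 CPM in KO treated libraries 1 to 3, against 75.8, 96.5 and 101 CPM in KO control libraries 1 to 3 (-1.03 log2, SE 0.19, edgeR adjusted p = 0.00185). The treated libraries all lay below the controls. Its relative Tfe3 was at 128, 126 and 134 CPM in treated and 147, 132 and 138 CPM in control libraries and did not pass (edgeR adjusted p = 0.49). Flcn, the folliculin gene that keeps TFEB in the cytosol in fed cells, fell by 0.53 on the log2 scale, Lamtor1, the anchor of the Ragulator complex, by 0.63 and Sesn1, a sestrin that restrains mTORC1, by 1.26.

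Of 47 lysosomal hydrolases and membrane proteins 4 rose and 10 fell (7 and 18 with the replicate block, 2 and 26 by library totals). The median was -0.21 log2 against -0.07 for all tested genes. The direction depended on single libraries: 4 rose and 4 fell without treated library 2, 3 and 6 without control library 2, and 4 and 2 without control library 3. Sgsh, the sulfamidase that degrades heparan sulfate, fell to 1.26, 1.39 and 1.68 CPM in treated libraries, against 5.29, 9.09 and 11.0 CPM in controls, with no overlap (-2.55 log2, SE 0.40, edgeR adjusted p = 0.000663). Control levels of Sgsh rose with the library number as the macrophage sums did, and the part of macrophages in its fall was not tested. Naglu, a second enzyme of heparan sulfate breakdown, was at 7.49, 10.3 and 13.2 CPM in treated and 16.1, 17.1 and 21.7 CPM in control libraries (-0.83 log2), and lost its call without treated library 1 or 2 or control library 2 or 3 (edgeR adjusted p = 0.0612 to 0.12). Smpd1, acid sphingomyelinase, fell by 1.04 on the log2 scale. Of 13 cathepsins and legumain, Ctsz alone passed in the main fit (4 rose and 1 fell with the replicate block, and 0 rose and 2 fell by library totals). Ctsz rose by 0.39 log2 (edgeR adjusted p = 0.0227). It did not pass without treated library 2 or 3 or control library 2 or 3 (edgeR adjusted p = 0.0586 to 0.11). Of 17 subunits of the V-ATPase, the proton pump of the lysosome, 5 rose and 1 fell (10 and 1 with the replicate block; median 0.30 log2, and -0.01 scaled by library totals; 1 and 3 by library totals; 1 to 8 and 1 without treated library 1, 2 or 3 or control library 1, 2 or 3). Atp6v0a1 was at 58.6, 66.0 and 94.9 CPM in treated and 21.2, 29.9 and 25.9 CPM in control libraries (1.51 log2). The E-box CACGTG at the centre of the element that TFEB binds was in 11.7% of all promoter windows and in 8 of 37 windows of lysosomal genes (21.6%), but in 43 of 424 windows of all genes that fell at least 2-fold (10.1%), a share near that of all windows. The full palindrome, GTCAC followed directly by GTGAC, was in 0.81% of all windows and in 0 of those 424. The windows of Sgsh (chr11:119355461-119355760, minus strand, E-box at -29) and Naglu (chr11:101069844-101070143, plus strand, E-box at -73) are shown as those of a pair of genes of one pathway that fell, with the E-box in capitals.
Sgsh: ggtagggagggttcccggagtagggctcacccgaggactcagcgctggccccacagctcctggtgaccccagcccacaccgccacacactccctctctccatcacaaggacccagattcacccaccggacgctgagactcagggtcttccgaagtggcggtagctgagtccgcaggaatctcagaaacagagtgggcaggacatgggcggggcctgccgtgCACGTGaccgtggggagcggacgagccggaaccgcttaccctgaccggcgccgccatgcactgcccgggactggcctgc
Naglu: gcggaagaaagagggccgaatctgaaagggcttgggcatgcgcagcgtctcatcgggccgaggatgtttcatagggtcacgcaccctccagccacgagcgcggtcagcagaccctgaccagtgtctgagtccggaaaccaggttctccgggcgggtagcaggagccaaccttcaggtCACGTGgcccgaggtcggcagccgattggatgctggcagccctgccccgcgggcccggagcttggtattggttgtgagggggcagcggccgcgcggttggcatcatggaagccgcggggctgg

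Of 20 endolysosomal channels 3 rose and 5 fell (5 and 8 with the replicate block; median -0.17 log2; 3 and 10 by library totals; 3 and 2 to 3 without treated library 2 or control library 2 or 3). Mcoln1, which encodes the calcium channel TRPML1 named in the series title, was at 28.4, 25.5 and 22.5 CPM in treated and 33.4, 32.1 and 31.2 CPM in control libraries. The treated libraries lay below the controls by 0.34 on the log2 scale (SE 0.12) without passing (edgeR adjusted p = 0.0586), and passed with the replicate block (edgeR adjusted p = 0.0324) or without treated library 1 (edgeR adjusted p = 0.0368). Its paralog Mcoln2 was low and rose, at 3.06, 2.15 and 2.17 CPM in treated and 1.11, 0.679 and 0.664 CPM in control libraries (1.58 log2). Tpcn1, a cation channel of endolysosomes, fell to 13.2, 9.69 and 10.9 CPM in treated libraries, against 18.0, 26.5 and 28.0 CPM in controls (-1.10 log2, edgeR adjusted p = 0.000969).

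Genes of autophagy, which delivers cytoplasm and bacteria to lysosomes, fell more often than they rose. Of 53 tested 3 rose and 15 fell, or 4 and 21 with the replicate block (median -0.18 log2; 2 and 31 by library totals). The initiating kinases Ulk1 and Ulk2 both fell, Ulk1 to 48.0, 46.5 and 45.8 CPM in treated libraries, against 65.3, 73.5 and 74.3 CPM in controls, and Ulk2 to 27.9, 24.9 and 26.0 CPM, against 43.3, 43.6 and 60.5 CPM in controls. Their changes were -0.60 and -0.90 log2 (edgeR adjusted p = 0.000539 and 0.000515). Atg13, a subunit of the same kinase complex, fell by 0.68 and Atg4c, a protease that processes LC3, by 1.27 on the log2 scale. Rubcn, which restrains autophagosome maturation and is needed for LC3-associated phagocytosis, fell to 21.6, 18.7 and 18.6 CPM in treated libraries, against 47.7, 48.6 and 44.8 CPM in controls (-1.26 log2, SE 0.22). Of the receptors that link cargo to autophagosomes, Optn rose by 1.17 log2, Tax1bp1 rose by 0.66 log2 and Nbr1 fell by 0.73 on the log2 scale. Sqstm1, the receptor p62, was at 2666, 3785 and 3978 CPM in treated and 2125, 2481 and 2477 CPM in control libraries and did not pass (edgeR adjusted p = 0.0873), but passed with the replicate block (0.54 log2, edgeR adjusted p = 0.000538) or without treated library 1 (edgeR adjusted p = 0.0352). Plekhm1, an adaptor of lysosome fusion, overlapped between groups and lost its call without treated library 1 or 2 or control library 2 or 3 (edgeR adjusted p = 0.0876 to 0.203).

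Of 39 genes for nucleoside transport, salvage and signalling 8 rose and 5 fell (9 and 10 with the replicate block; median 0.09 log2, and -0.23 scaled by library totals; 7 and 14 by library totals; 7 and 3 without treated library 2). In the main fit the falls were near the share of all tested genes (11.5%). Cmpk2, an interferon-induced mitochondrial nucleotide kinase, was at 161, 448 and 636 CPM in treated and 5.96, 8.67 and 6.69 CPM in control libraries (5.87 log2, edgeR adjusted p = 2.47e-05). Dck, the deoxycytidine kinase that salvages deoxynucleosides, was at 73.2, 167 and 166 CPM in treated and 30.9, 40.0 and 40.9 CPM in control libraries (1.86 log2). Pnp, purine nucleoside phosphorylase, rose by 1.55 log2 and Adora2a, the receptor for extracellular adenosine, by 1.46 log2. Slc29a2, which encodes the plasma membrane transporter ENT2, fell to 5.09, 2.61 and 3.08 CPM in treated libraries, against 11.7, 7.10 and 8.16 CPM in controls (-1.32 log2, edgeR adjusted p = 0.0137). Its call was lost without treated library 2 or 3 or control library 1 (edgeR adjusted p = 0.0523 to 0.0643). Tk2, mitochondrial thymidine kinase, fell by 1.03 and Uprt by 1.04 on the log2 scale.

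Of 30 genes for itaconate, nitric oxide, the phagocyte oxidase and prostaglandins 10 rose and none fell (12 rose and 4 fell with the replicate block; median 0.13 log2, and -0.20 scaled by library totals; 8 and 4 by library totals). Acod1, the enzyme that makes itaconate, was at 279, 375 and 229 CPM in treated and 25.9, 10.8 and 2.04 CPM in control libraries (4.52 log2, SE 0.69, edgeR adjusted p = 0.00078). Ptgs2, the inducible cyclooxygenase, rose by 4.10 log2 and Cybb, the catalytic subunit of the phagocyte oxidase, by 1.72 log2. Nos2, inducible nitric oxide synthase, had 53 counts in treated libraries and 1 in controls, a ratio of 64.0 (95% counting interval 11.0 to 2575), and was below the filter. Of 40 genes of glycolysis and hypoxia 10 rose and 1 fell (11 and 5 with the replicate block; median 0.20 log2, and -0.13 scaled by library totals; 6 and 7 by library totals; 6 and 0 to 2 without treated library 2 or control library 2). Hk2, a hexokinase, was at 95.6, 214 and 199 CPM in treated and 29.9, 29.5 and 37.8 CPM in control libraries (2.39 log2, edgeR adjusted p = 0.000157), and the call of the glucose transporter gene Slc2a1 (1.33 log2) was lost with the block (edgeR adjusted p = 0.0614) and without treated library 2 or any 1 control library (edgeR adjusted p = 0.0614 to 0.179). Of 61 nuclear-encoded respiratory chain subunits 2 rose and none fell (5 rose and 3 fell with the replicate block; 0 and 22 by library totals; 0 to 5 and 0 without treated library 1, 2 or 3 or control library 1, 2 or 3), under the background shares.

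Lipid synthesis genes fell more often than they rose. Of 34 sterol and fatty acid synthesis genes 1 rose and 6 fell, or 3 and 15 with the replicate block (median -0.28 log2; 0 and 13 by library totals; 0 and 12 without treated library 1). Fads1, the delta-5 desaturase, fell to 11.1, 11.7 and 8.62 CPM in treated libraries, against 37.3, 37.4 and 40.7 CPM in controls (-1.88 log2, SE 0.15, edgeR adjusted p = 6.13e-06). Scd2, a stearoyl-CoA desaturase, fell by 1.48 and Dhcr7, the last enzyme of one branch of cholesterol synthesis, by 1.03 on the log2 scale. Of 24 genes of LXR, PPAR and lipid efflux 3 rose and 3 fell (5 and 8 with the replicate block; 2 and 9 by library totals). In the main fit both counts were near the shares of all tested genes, 11.6% for rises and 11.5% for falls. Rxra, the shared partner of these nuclear receptors, fell to 16.8, 27.6 and 38.2 CPM in treated libraries, against 43.5, 79.7 and 139 CPM in controls (-1.67 log2), and its controls differed by library number as the macrophage markers did. Ch25h, which makes the antiviral oxysterol 25-hydroxycholesterol, rose by 1.92 log2. Of 33 genes of amino acid transport and the integrated stress response 6 rose and 3 fell (10 and 4 with the replicate block; median 0.13 log2, and -0.19 scaled by library totals; 6 and 7 by library totals). Ppp1r15a, the phosphatase subunit GADD34 that restores translation, was at 529.6, 698 and 618 CPM in treated and 137, 128 and 128 CPM in control libraries (2.23 log2).

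The mitotic genes Kif20a, Cenpf and Ccnb1 fell, while the inhibitor gene Cdkn1a and the D-type cyclin gene Ccnd2 rose. Of 44 cell cycle genes 4 rose and 7 fell, or 8 and 18 with the replicate block (median -0.21 log2; 3 and 22 by library totals). The shares of all tested genes were 11.6% for rises and 11.5% for falls. Kif20a, a mitotic kinesin, fell to 8.21, 7.83 and 5.33 CPM in treated libraries, against 24.2, 24.1 and 20.0 CPM in controls (-1.67 log2, edgeR adjusted p = 0.00239), and Cenpf and Ccnb1 fell by 1.37 and 1.32 on the log2 scale. Cdkn1a, the inhibitor p21, was at 786, 774 and 855 CPM in treated and 203, 202 and 221 CPM in control libraries (1.95 log2), and Ccnd2 rose by 2.65 log2. Of 24 BCL2 family and death genes 11 rose and 3 fell (12 and 5 with the replicate block; median 0.31 log2; 10 and 8 by library totals). The survival genes Bcl2l1 and Cflar rose by 2.77 and 1.73 log2, and so did Bcl2l11, which encodes the death-promoting BIM, by 2.09 log2. Bmf, another death-promoting member, fell to 8.99, 7.48 and 5.54 CPM in treated libraries, against 29.0, 52.1 and 45.8 CPM in controls (-2.52 log2, edgeR adjusted p = 2.85e-05).

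Of 40 Rab GTPases and partners of phagosome traffic 9 rose and 4 fell (14 and 6 with the replicate block; median 0.12 log2, and -0.20 scaled by library totals; 6 and 13 by library totals). Rab8b was at 1638, 1983 and 2223 CPM in treated and 830.5, 748 and 858 CPM in control libraries (1.26 log2, edgeR adjusted p = 3.16e-05), and Rab27a, which recruits NOX2 to the phagosomes of DCs, rose by 1.46 log2. Rab7b, a late endosomal GTPase that lowers Toll-like receptor levels, fell to 30.3, 23.0 and 28.4 CPM in treated libraries, against 111, 86.9 and 115 CPM in controls (-1.94 log2, edgeR adjusted p = 0.00024). Arl11, an Arf-like GTPase, fell to 0.479, 1.57 and 2.59 CPM, against 3.79, 14.3 and 19.6 CPM in controls (-3.04 log2). Of 26 genes of TGF-beta signalling, Smad and Id factors 4 rose and 3 fell (7 and 4 with the replicate block; median 0.07 log2, and -0.24 scaled by library totals; 4 and 7 by library totals). In the main fit the falls of the Rab and TGF-beta lists were near the share of all tested genes (11.5%). Smad6, an inhibitory Smad, fell by 2.84 on the log2 scale and Skil, a repressor of Smad complexes, rose by 1.09 log2. Control levels of Arl11 and of Smad6 (3.07, 5.95 and 7.06 CPM) rose with the library number, as the macrophage sums did. The part of macrophages in these falls was not tested.

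Wide falls outside the lists included those of B3gnt8, Fut7 and Tmem86a. B3gnt8, an N-acetylglucosaminyltransferase, was at 0.300, 0.812 and 0.280 CPM in KO treated libraries 1 to 3 and 2.56, 8.25 and 11.4 CPM in KO control libraries 1 to 3 (-3.96 log2, SE 0.64, edgeR adjusted p = 0.000905). Fut7, the fucosyltransferase that makes selectin ligands, fell to 0.359, 0.986 and 1.47 CPM in treated libraries, against 3.40, 7.05 and 10.5 CPM in controls (-2.90 log2). Tmem86a, a lysoplasmalogenase, fell to 3.12, 4.47 and 8.34 CPM in treated libraries, against 13.5, 41.9 and 61.4 CPM in controls (-2.88 log2). In all 3 genes the groups did not overlap, and control library 1 was the lowest of the controls, as it was for the red pulp macrophage sums, whose part in these falls was not tested. Among the genes that fell with no overlap, the largest loss in CPM was that of Map3k14. Map3k14, the NF-kB-inducing kinase NIK of the noncanonical pathway, was at 881, 448 and 376 CPM in treated and 1360, 1053 and 977 CPM in control libraries (-0.99 log2, edgeR adjusted p = 0.0226). The call of Map3k14 was lost without treated library 2 or 3 or control library 1 or 2 (edgeR adjusted p = 0.0573 to 0.0936). Lfng, a glycosyltransferase of Notch receptors, fell by 1.25 and Inpp5d, the inositol phosphatase SHIP1, by 0.80 on the log2 scale.

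Cell type markers changed singly. Of 21 cDC1 markers 2 rose and 4 fell (2 and 7 by library totals; 5 and 3 without control library 1), and of 21 cDC2 markers 1 rose and 5 fell (5 and 8, and 2 and 9, with the replicate block; 1 and 8 by library totals; 1 and 1 to 3 without treated library 2 or 3 or control library 1, 2 or 3). The cDC1 members that rose were Btla (1.96 log2), an inhibitory receptor, and the interferon-induced Ifi205. Xcr1 and Sirpa did not pass (0.78 and -0.50 log2, edgeR adjusted p = 0.102 and 0.212) but did with the replicate block (edgeR adjusted p = 0.000188 and 0.00343) or without control library 1 (edgeR adjusted p = 0.0416 and 0.0174). Irf4, a factor that cDC2 need, was at 646, 496 and 252 CPM in treated and 206, 87.7 and 78.8 CPM in control libraries (1.90 log2, edgeR adjusted p = 0.00466), with number 1 highest in both groups. No B cell, T cell or neutrophil marker passed, of 13, 12 and 14 tested by edgeR (0, 0 and 0 of them at an unadjusted p under 0.05, and 0 by DESeq2 or limma-voom), whereas with the replicate block 5 neutrophil markers rose, 1 B cell marker rose (Jchain) and 1 fell (Cd79b), and 1 T cell marker rose (Lck) and 1 fell (Il7r). Of 12 red pulp macrophage markers, Spic, the transcription factor of those cells, rose (181, 319.7 and 583 CPM treated, 98.1, 144 and 211 CPM control, 1.26 log2, edgeR adjusted p = 0.0281), and its call was lost without treated library 3 or control library 1 or 2 (edgeR adjusted p = 0.0854 to 0.137). With the replicate block, 4 other macrophage markers, Slc40a1, Treml4, C1qa and C1qc, fell. Of 12 monocyte markers 2 rose and 1 fell (5 and 2 with the replicate block; 1 and 1 by library totals), led by Ms4a4c (2.13 log2). The part of the monocyte and plasmacytoid DC sums in the rises described above was not tested. Of 14 erythroid and platelet markers, Hba-a2, an alpha globin gene with a near-identical copy that can share its reads, rose (1.59 log2, edgeR adjusted p = 0.0347). The call of Hba-a2 was lost with DESeq2 (DESeq2 adjusted p = 0.0609) and in the 6 KO libraries alone (edgeR adjusted p = 0.0916). It was also lost without treated library 3 or control library 1 or 2 (edgeR adjusted p = 0.0615 to 0.196). Kdr, an endothelial receptor gene, rose to 23.7, 71.6 and 58.6 CPM in treated libraries, against 6.80, 6.32 and 8.49 CPM in controls (2.83 log2), while the endothelial gene Cdh5 was at 0, 0.232 and 0.210 CPM in treated and 0, 0 and 0.474 CPM in control libraries.

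The size of the response differed between library numbers. Taken as treated minus control of the same number, genes that rose at least 2-fold had a median of 1.35 log2 in number 1, 1.67 in number 2 and 1.79 in number 3, and genes that fell at least 2-fold had medians of -0.99, -1.27 and -1.32. Antiviral effectors had medians of 2.36, 3.01 and 3.38, guanylate-binding proteins and immunity-related GTPases 2.74, 3.57 and 3.88, and nucleic acid sensors 2.88, 3.22 and 3.88 log2 in numbers 1, 2 and 3. The IL-12, IL-6 and IL-10 list stood the other way, with medians of 1.81, 1.61 and 1.10 log2. Number 1 also had the lowest red pulp macrophage sums and the Y-linked counts, and the part of either in these sizes was not tested.

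**Figure D5:**
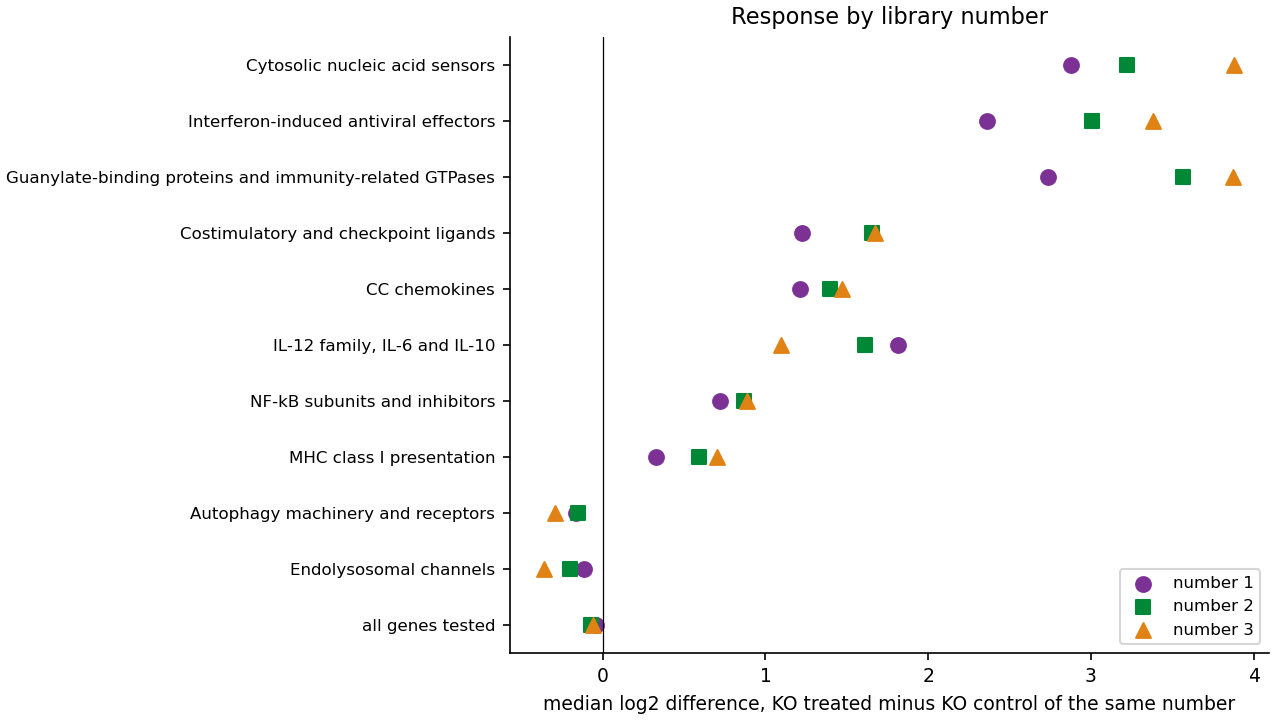
Median log2 difference of each gene list between the KO treated and the KO control library of one number (circle 1, square 2, triangle 3). Number 1 has the smallest medians for the interferon-induced lists (2.36 log2 for antiviral effectors, against 3.01 and 3.38) and the largest for the IL-12, IL-6 and IL-10 list.

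Set against the response of WT cells, no gene passed in the main fit, which has no replicate block. The KO response minus the WT response, tested for all 14293 genes with edgeR, gave 0 genes higher and 0 lower (0.0%), with 608 at an unadjusted p under 0.05, and DESeq2 gave 3 higher and 3 lower and limma-voom 0 of either. Without KO treated library 1, edgeR gave 8 higher and 0 lower. A difference that misses the threshold does not show that the responses were alike. KO and WT libraries also differed in markers of other cells. Erythroid and platelet markers summed to 2095 to 5300 CPM in KO and 34.5 to 45.8 CPM in WT libraries, neutrophil markers to 128 to 1456 CPM in KO and 14.5 to 28.3 CPM in WT libraries and red pulp macrophage markers to 1151 to 3819 CPM in KO and 446 to 1220 CPM in WT libraries. KO and WT libraries overlapped in the macrophage sums and not in the other two. The part of these cells in the difference between responses was not tested. Median changes in KO and in WT cells were 3.04 and 2.57 log2 for antiviral effectors, 3.62 and 3.69 for guanylate-binding proteins and immunity-related GTPases, 2.15 and 2.38 for the IL-12, IL-6 and IL-10 list and -0.18 and -0.19 for autophagy. Tfeb changed by -1.03 log2 in KO and -0.42 log2 in WT cells, a difference of -0.61 (SE 0.26, edgeR adjusted p = 1). Cxcl10 changed by 7.00 log2 in KO and 5.74 log2 in WT cells, a difference of 1.26 (SE 0.54, edgeR adjusted p = 1). With the library number as a block within genotype, 21 genes were higher (0.147%) and 20 lower (0.14%) in the KO response at an edgeR adjusted p under 0.05.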

How the data were processed

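RNA from the CD11c-selected spleen cells was sequenced as paired 150-base reads on a NovaSeq, per the labels' protocols. CASAVA 1.8, HISAT2 and the build mm10 appear in the submitters' processing notes. How reads were counted, whether by strand, and on which annotation is not given in the sources used here. Deposited by the authors were whole-number counts of reads per gene, neither normalized nor filtered.

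Genes were filtered with filterByExpr over the 4 groups, and the lowest share of counts kept in a library was 99.9%. TMM factors were computed, and all 12 libraries were fitted with edgeR 4.0.16 (quasi-likelihood, robust) in R 4.3.3, with 1 mean per group. Adjusted p-values are Benjamini-Hochberg over all 14293 tested genes, with a threshold of 0.05, and tests are two-sided. Each SE is the absolute log2 fold change divided by the square root of F. The fit was tested on simulated data for the KO response. Of simulated 2-fold changes, 44.0% of falls and 43.8% of rises were recovered, and of 4-fold changes 85.4% and 82.0%. Of genes simulated without a change, 0.029% were called. In the simulation 13785 of 13981 genes had no change, whereas 3292 of 14293 genes passed in the measured KO response. The simulation also held no effect of the library number. These shares describe that setting and need not hold for the measured response. Ratios with few control counts carry exact 95% counting intervals, which cover counting error only.

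Same-numbered KO libraries deviated together (r = 0.530, 0.271 and 0.470 for numbers 1, 2 and 3, and 0.478, 0.226 and 0.277 in WT). The labels state no pairing, so libraries were paired by number from this check alone, and only in the replicate block. The main fit and its p-values do not use that pairing. The alternatives were other scalings, filters and tools (DESeq2 1.42.0, limma 3.58.1), the 6 KO libraries alone, the replicate block and leaving out libraries.

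The gene lists (51 lists, 1178 tested genes) and the compared groups were chosen with earlier results of these data known. Named genes were the 12 widest changes in each direction with no overlap and a mean of at least 5 CPM in the higher group, the 10 largest gains and losses in CPM, up to 6 called members of each list with the widest change, and members the order of roles needed. Promoters and their build are those of RefSeq.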

Additional observations from a re-analysis of the deposited data

Results flagged for a closer look

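With the library number as a block within genotype, 5 of the genes followed by name had a KO response that differed from the WT response, and none of them passed in the fit without the block. Log2 differences are the KO response minus the WT response, with adjusted p from edgeR. Il27, a cytokine of the IL-12 family, differed by -2.93 (edgeR adjusted p = 0.0246). The uncharacterised gene 6430548M08Rik differed by -1.43 (edgeR adjusted p = 0.00381). It was at 52.7, 119 and 188 CPM in KO control libraries 1 to 3, rising with the library number as the red pulp macrophage sums did. WT control libraries 1 to 3 held 26.8, 35.6 and 26.4 CPM of it. Egr1, an early growth response factor, differed by 1.61 (edgeR adjusted p = 0.00381). Id3, an inhibitor of helix-loop-helix factors, differed by 1.31 (edgeR adjusted p = 0.0246). Spic, the transcription factor of red pulp macrophages, differed by 1.56 (edgeR adjusted p = 0.000259). Red pulp macrophage markers summed to 1151 to 3819 CPM in KO and 446 to 1220 CPM in WT libraries. The part of macrophages in the differences of Spic and of 6430548M08Rik was not tested.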

How the results depend on the processing

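Scaled by library totals alone, 1030 genes rose, 4691 fell and 1483 fell at least 2-fold. With the replicate block, 2617 genes fell, and in the KO response minus the WT response 21 were higher and 20 lower. That difference gave 1 higher and 1 lower gene with no filter on low counts, 3 and 3 with DESeq2, and 5 and 2 without both KO libraries numbered 1, a setting chosen after seeing the data. Leaving out 1 library at a time gave 1229 to 1822 genes that rose, 882 to 1829 that fell, 734 to 898 that rose at least 2-fold and 343 to 595 that fell at least 2-fold, with 0 to 8 higher and 0 to 1 lower in the difference between responses. Cox7a2, a respiratory chain subunit gene, changed sign when scaled by library totals (-0.0014 log2, edgeR adjusted p = 0.994). Of 275 genes followed by name, 208 kept their direction and their side of the threshold under each of the 22 settings that tested them (270 genes were tested at a mean of at least 1 CPM and 272 in the 6 KO libraries alone). With the replicate block 2 of the 275 genes lost their call and 7 gained one, and among the single genes named in the report it changed no call other than those given there. With 3 libraries a group, a difference that misses the threshold does not show equal levels, and the cause of these shifts was not tested.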
